A study of Sus scrofa with 14 samples.

Results

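MEIS2, SOX21 and GATA5 are 3 transcription factors that set regional identity during development, and they are 3 of the 10912 genes that could be named on porcine whole-transcript arrays. Each has 1 transcript row on the array, so no choice between rows was needed. They were selected on the measured difference between the oxyntic and the pyloric mucosa of these same arrays. That difference is therefore given as a description, without a test.

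MEIS2 is a homeodomain protein of the TALE class, which binds DNA together with PBX and HOX proteins and takes part in the patterning of limb, heart, eye and hindbrain. SOX21 is an HMG-box protein of the same branch of the SOX family as SOX14 and mostly acts as a repressor. It is best known from neural progenitors, where it counteracts SOX2, and SOX2 is in turn a factor of the stomach and of the rest of the anterior gut tube. GATA5 is a zinc finger protein which, with GATA4 and GATA6, is expressed in the endoderm of the gut and in the heart. The oxyntic mucosa holds the parietal cell, which secretes acid, and the chief cell, which secretes pepsinogen, whereas the pyloric mucosa holds mucous glands and the gastrin (G) cell.

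The samples came from 7 unrelated male weaned pigs of a Large White and Landrace cross, 5 to 6 weeks old and of 11.1 kg body weight on average. All were fed a standard post-weaning feed for 5 days, and none received another treatment. From each pig 1 sample of the oxyntic mucosa (OXY) near the greater curvature and 1 of the pyloric mucosa (PYL) near the sphincter were hybridized, on 14 arrays in all. The sections were transmural, so they also hold muscle and connective tissue, and in such bulk samples fewer cells of a type cannot be told apart from less RNA per cell.

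The deposited intensities were taken to log2. The arrays formed 2 sets, with a median log2 intensity of 4.83 to 4.92 for pigs 1 to 3 and of 5.63 to 5.73 for pigs 4 to 7. The sets do not cut through a pig, so a shift common to both arrays of a pig drops out of the difference within it, whereas a mean ± SD over the 7 pigs contains it. The PYL arrays of pigs 4 and 7 stood apart within their set, as their Spearman correlation was 0.989, whereas it was 0.954 to 0.965 between either of them and pig 5 or 6. ATP4A, the catalytic subunit of the parietal proton pump, was at 11.93 to 12.33 on the OXY arrays and at 4.21 to 4.97 on the PYL arrays, and the hormone gastrin (GAST) was at 4.96 to 5.90 and at 8.85 to 11.47. Both fitted the labels on every array.

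MEIS2 was higher in PYL than in OXY in 7 of 7 pigs. Its log2 intensity in OXY was 6.98, 7.38, 7.03, 7.64, 6.96, 6.07 and 6.62 in pigs 1 to 7. In PYL it was 8.88, 8.57, 8.68, 9.48, 9.53, 9.44 and 9.16. The 2 mucosae did not overlap, as the highest OXY value, that of pig 4, lay below the lowest PYL value, that of pig 2. For comparison, 0.513% of the named genes had every PYL array above every OXY array. The means were 9.10 ± 0.40 (SD, n = 7) in PYL and 6.95 ± 0.51 in OXY. The difference within the pigs was 2.15 ± 0.72 (SD, n = 7, log2), or 4.44-fold, and it ranked 21 towards PYL among the named genes.

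Among pigs 4 to 7, whose arrays share 1 distribution, MEIS2 spread more in OXY (6.07 to 7.64, SD 0.66) than in PYL (9.16 to 9.53, SD 0.17). Among pigs 1 to 3 the SD was 0.22 in OXY and 0.16 in PYL, and over all 7 pigs 0.51 and 0.40, so the wider spread in OXY was that of pigs 4 to 7. Pig 6 had the lowest OXY level and the largest difference (3.37), and pig 2 the smallest difference (1.19). In ranks within each array MEIS2 lay between the percentiles 90.9 and 94.8 of the named genes in PYL, near the upper end where a change of level moves the rank little. In OXY it lay between 72.7 and 79.2 in pigs 1 to 3 and between 47.8 and 70.6 in pigs 4 to 7, so the sets of arrays did not overlap in this rank.

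SOX21 was higher in PYL in 6 of 7 pigs, by a smaller and less even amount. In OXY its log2 intensity was 5.37, 4.98, 5.08, 5.37, 5.67, 5.86 and 5.92 in pigs 1 to 7, and in PYL 6.36, 6.81, 7.00, 5.77, 6.76, 7.20 and 5.81. The mucosae overlapped through the PYL arrays of pigs 4 and 7, which lay below the OXY arrays of pigs 6 and 7. The difference was 0.40 in pig 4 and -0.11 in pig 7, against 0.99 to 1.92 in the other pigs. Over all pigs the means were 6.53 ± 0.57 (SD, n = 7) in PYL and 5.46 ± 0.37 in OXY. The difference was 1.07 ± 0.73 (2.09-fold), and without pigs 4 and 7 it was 1.43.

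In SOX21 the wider spread was in PYL. Among pigs 4 to 7 the PYL values spanned 5.77 to 7.20 and the OXY values 5.37 to 5.92. Its rank among the named genes was between the percentiles 38.9 and 48.7 on the OXY arrays, in the lower middle of the array values. On the PYL arrays it was at 43.1 and 44.0 in pigs 4 and 7 and between 57.8 and 73.6 in the others. The PYL samples of pigs 4 and 7 thus carried SOX21 at the rank of the OXY samples.

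GATA5 had the opposite direction, with a higher level in OXY in 7 of 7 pigs. In OXY its log2 intensity was 6.58, 6.85, 6.48, 6.88, 7.39, 7.55 and 7.28 in pigs 1 to 7, and in PYL 4.17, 5.68, 4.37, 4.92, 5.13, 5.56 and 5.03. The mucosae did not overlap, a pattern that 1.22% of the named genes showed in this direction. The mean was 7.00 ± 0.41 in OXY against 4.98 ± 0.56 in PYL (SD, n = 7), and PYL minus OXY was -2.02 ± 0.41. This was a 4.06-fold higher level in OXY, and the difference ranked 60 towards OXY among the named genes.

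The difference of GATA5 was the most even of the 3 genes. It lay between -2.41 and -1.96 in 6 pigs, pigs 4 and 7 included, and was -1.17 in pig 2. In that pig GATA5 was at 5.68 in PYL, against 4.17 and 4.37 in pigs 1 and 3 of the same set, and in OXY at 6.85 against 6.58 and 6.48. The percentile among the named genes was 52.7 in the PYL of pig 2, 32.0 to 41.5 in the other PYL samples and 58.8 to 70.9 in OXY. The files give no detection level, so whether background reduces the fold of GATA5 or SOX21 in the mucosa where each is low was not tested. Without pig 2 the mean difference was -2.16.

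**Figure D1:**
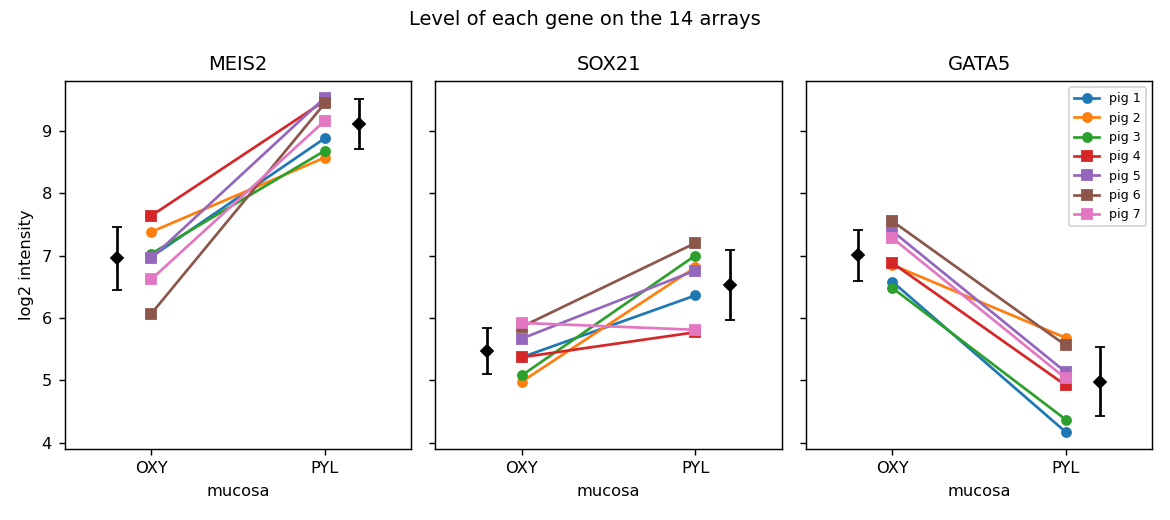
Log2 intensity of MEIS2, SOX21 and GATA5 in OXY and PYL, with 1 line for each of the 7 pigs (circles for pigs 1 to 3, squares for pigs 4 to 7) and black diamonds with bars for the mean and SD of each mucosa. All lines rise from OXY to PYL for MEIS2 and fall for GATA5, those of SOX21 are nearly flat in pigs 4 and 7, and levels are not to be compared between genes.

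Whether pigs with a larger difference in one factor also had a larger difference in another was asked over the 7 pigs, with 3 pairs compared and an exact two-sided permutation test over all 5040 pairings. No pair passed. For MEIS2 and SOX21 r was -0.33 (p = 0.47) and rho -0.36 (p = 0.44). For MEIS2 and GATA5 r was -0.48 (p = 0.27) and rho -0.46 (p = 0.30). For SOX21 and GATA5 r was 0.46 (p = 0.31) and rho 0.32 (p = 0.50). All adjusted p were 0.47 for r and 0.50 for rho. Without the 2 pigs farthest from the median of the first-named factor r was -0.54, -0.38 and 0.62, in the same order. These were pigs 2 and 6 for both pairs of MEIS2 and pigs 3 and 7 for SOX21 and GATA5. Pig 2, which deviated in GATA5, thus stayed in the last pair, which was not tested without it. With 7 pigs only a strong relation can be seen, and within a set of arrays there are too few pigs to give r.

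The difference between the mucosae averaged 1.58 in pigs 1 to 3 but 2.58 in pigs 4 to 7 for MEIS2, 1.58 and 0.68 for SOX21, and -1.90 and -2.11 for GATA5. The difference between the 2 sets of arrays was tested with limma as an interaction over all rows. It was 1.00 (SE 0.35) for MEIS2, -0.90 (SE 0.39) for SOX21 and -0.22 (SE 0.28) for GATA5, with an adjusted p of 0.42, 0.43 and 0.75 (0.021, 0.05 and 0.46 unadjusted). Of all 27460 rows limma called 0, and 3197 had an unadjusted p under 0.05.

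Markers of other cells moved with some of these values. The mean log2 level of 9 measured smooth muscle genes (of 15 listed), such as TAGLN and CNN1 of the contractile apparatus, was 7.75, 9.48, 8.92, 9.64, 8.44, 8.13 and 8.17 in the OXY of pigs 1 to 7. Within each set of arrays the OXY samples had the same order in this mean as in MEIS2, with pig 2 the highest and pig 1 the lowest of pigs 1 to 3, and pig 4 the highest and pig 6 the lowest of pigs 4 to 7. In PYL the muscle mean was 10.61 and 10.40 in pigs 4 and 7 and 8.49 to 8.75 in the others, whereas MEIS2 in pigs 4 and 7, at 9.48 and 9.16, was no higher than in pigs 5 and 6, at 9.53 and 9.44. The muscle mean was lower in PYL than in OXY in pigs 2 and 3 (by -0.91 and -0.16), where MEIS2 was still higher in PYL by 1.19 and 1.65. ACTA2, the muscle gene of highest level, went the other way from the rest of the list. It was lower in PYL in 6 of 7 pigs, with -0.42 and -0.55 in pigs 4 and 7. Its OXY level in pigs 4 to 7 was 11.36, 10.98, 10.75 and 10.62, lowest in pig 7 and not in pig 6. Limma called 0 of the 9 muscle genes between the mucosae (3 at an unadjusted p under 0.05, 0 by the repeated-measures test of the methods). Both measured genes of the interstitial cells of Cajal (of 3 listed), ANO1 and the receptor KIT, also had a higher mean level in PYL. The mean of both was higher in PYL in 7 of 7 pigs, by 1.12, 0.35, 0.36, 1.00, 1.36, 1.36 and 1.72 in pigs 1 to 7. ANO1 alone was higher in 7 of 7 pigs, but KIT in 6 of 7, with 0.09 in pig 2 and -0.11 in pig 3. Limma called ANO1 (1.48, adjusted p = 0.0016) but not KIT (0.60, adjusted p = 0.051). The part of muscle or of these cells in the level of MEIS2 was not tested.

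In pigs 4 and 7, where SOX21 differed least, the means of some marker lists also differed least and those of others did not. The mean PYL minus OXY of 3 measured surface mucous genes (of 8 listed), the gastrokines GKN1 and GKN2 and the protease CAPN9, was -0.06 and -0.21 in pigs 4 and 7 and 0.43 to 0.79 in the others. For 14 measured endocrine genes (of 15 listed) it was 0.00 and -0.08 in pigs 4 and 7 and 0.82 to 1.71 in the others, although single genes of this list stayed apart (GAST by 3.12 and 3.54 and ghrelin, GHRL, by -2.06 and -1.96 in pigs 4 and 7). The mean of the 3 measured gland mucous genes (of 4 listed) lay furthest towards OXY in these pigs, at -1.17 and -1.84, as did that of the 4 chief cell genes, at -1.24 and -1.16. The 2 means are not independent, as pepsinogen C (PGC) is on both lists, with -1.66 and -1.25 in pigs 4 and 7. The chief cell mean includes GIF (gastric intrinsic factor), which was higher in PYL in 7 of 7 pigs. GIF differed by 0.59 and 0.29 in pigs 4 and 7 and by 0.71 to 4.04 in the others. The part of the makeup of these samples in the SOX21 values was not tested.

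The parietal list moved with GATA5 in part, in the difference of pig 2 and in PYL but not in OXY. Of its 6 measured genes (of 8 listed), 5 were higher in OXY and CASR, a calcium-sensing receptor, was higher in PYL (change 1.02, SE 0.27, adjusted p = 0.045 from limma). Their mean PYL minus OXY was -3.64 in pig 2 and -4.71 to -4.27 in the other pigs, so pig 2 had the smallest difference in both. In the PYL of pigs 1 to 3 their mean was 4.47, 4.82 and 4.37, highest in pig 2 as was GATA5. In the PYL of pigs 4 to 7 it was 4.74, 5.25, 5.20 and 4.76, and GATA5 was also higher in pigs 5 and 6 than in pigs 4 and 7. Part of this came from CASR, at 4.52, 6.49, 6.28 and 4.85 there. ATP4B, KCNE2 and SLC26A7 were also higher in pigs 5 and 6 than in pigs 4 and 7. ATP4A (4.87, 4.45, 4.30 and 4.41) and the histamine receptor HRH2 (5.57, 5.42, 5.41 and 5.37) were instead highest in pig 4, where GATA5 was lowest of these pigs. In the OXY of pigs 1 to 3 the parietal mean was 8.86, 8.46 and 8.79, lowest in pig 2, where GATA5 was highest. In the OXY of pigs 4 to 7 it was 9.45, 9.55, 9.46 and 9.22, lowest in pig 7, whereas GATA5 was lowest in pig 4. The share of parietal cells in the GATA5 signal was not tested.

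**Figure D2:**
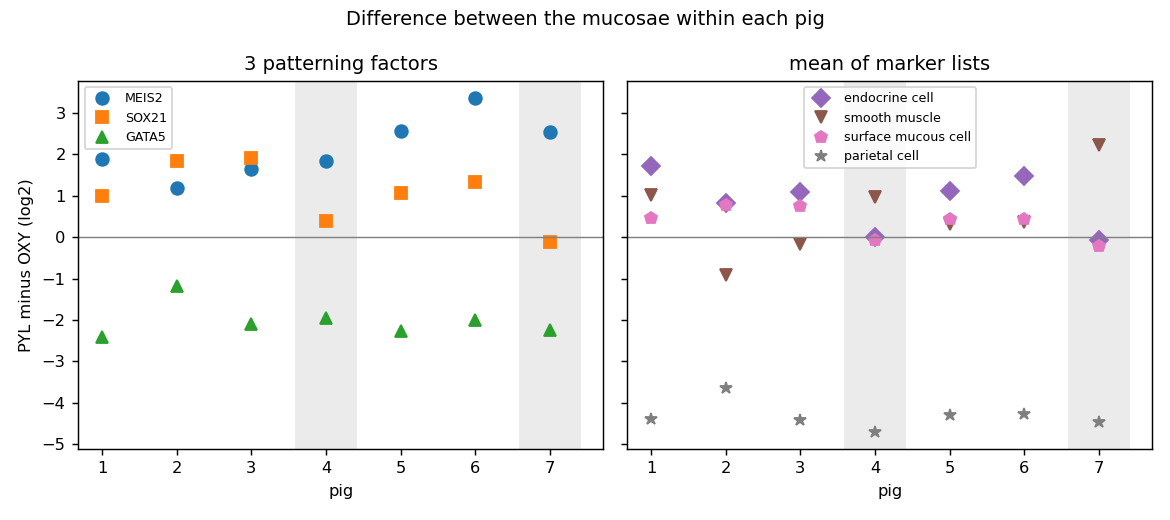
PYL minus OXY in log2 for each pig, with 1 point for each of the 3 factors (left) and for the mean of each of 4 marker lists (right), and pigs 4 and 7, whose PYL arrays stand apart, on grey. SOX21 and the endocrine and surface mucous means are lowest in pigs 4 and 7 (0.40 and -0.11 for SOX21), while MEIS2 stays between 1.19 and 3.37 and GATA5 between -2.41 and -1.17 in all pigs.

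The genes whose pattern was most like that of each factor were found by the Pearson correlation over the 14 arrays after subtraction of the pig mean. With 1 array of each mucosa from a pig, r rests only on the 7 differences within the pigs, their mean included. The mean difference, on which the factors were selected, thus enters each r and each count of genes above 0.9. All genes also share the same arrays. For GATA5 the closest was the histamine H2 receptor HRH2 (r = 0.998), through which histamine stimulates the parietal cell. HRH2 differed by -1.72 in pig 2 and by -3.46 to -2.71 in the others, and on the PYL arrays of pigs 1 to 3 it was at 4.73, 5.66 and 4.78. On their OXY arrays HRH2 was at 8.19, 7.38 and 8.10, lowest in pig 2, whereas GATA5 was highest there. The next were the disulfide isomerase homolog TMX2 (r = 0.996), TMEM92 and the mitochondrial protein APOO (r = 0.995 each) and glutamine synthetase GLUL (r = 0.994). Of the other parietal genes, the chloride transporter SLC26A7 had 0.993, ATP4B 0.989, ATP4A 0.986, KCNE2 0.984 and CASR -0.795. Markers of other cells came as near, with 0.984 for the endothelial gene FLT1, 0.975 for the chief cell gene PGA5 and 0.972 for the endothelial gene ENG. In all, 589 named genes had r above 0.9 with GATA5.

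For SOX21 the closest were the asialoglycoprotein receptor subunit ASGR2 and the sphingomyelinase SMPD3 (r = 0.994 each), followed by the morphogen sonic hedgehog (SHH, r = 0.992), LOC100155579 and the galactosyltransferase B3GALT5 (r = 0.990 each). SHH differed by 0.63, 1.70, 1.44, 0.43, 0.94, 1.29 and -0.13 in pigs 1 to 7. As for SOX21, pigs 2 and 3 had the largest differences and pig 7 alone a lower PYL level. The count with r above 0.9 was 365.

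For MEIS2 the closest were ACADL (r = 0.994), a dehydrogenase of fatty acid oxidation, the G protein subunit GNAQ (r = 0.989), the RNA-binding protein TARDBP and TTC13 (r = 0.988 each) and FXYD6 (r = 0.985), which regulates the sodium pump. ACADL differed by 0.58 in pig 2 and by 1.62 in pig 6, the pigs with the smallest and the largest difference of MEIS2. The differences of TARDBP (0.06 to 0.34) and TTC13 (0.24 to 0.52) were small, so a high likeness does not mean a large difference. Of the marker genes the chloride channel ANO1, which marks the pacemaker cells of the muscle coat and is also found in epithelia, came nearest to MEIS2 (r = 0.975). The endocrine genes GAST (0.931), SCGN (0.908) and SCG5 (0.904) came next, and KIT had 0.90. The count above 0.9 was 176, the lowest of the 3 factors.

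**Figure D3:**
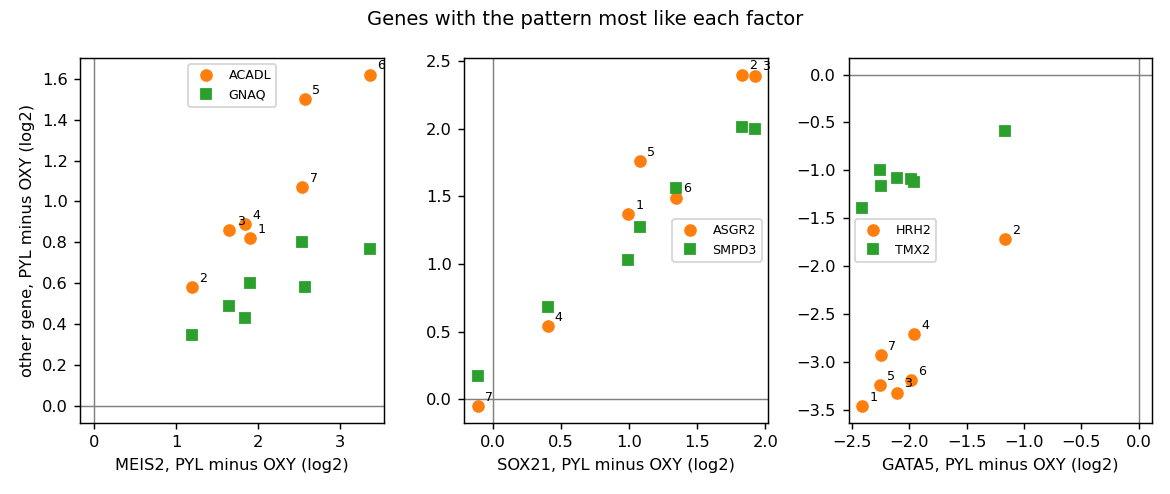
PYL minus OXY (log2) of the 2 genes with the pattern most like MEIS2, SOX21 and GATA5, plotted against the difference of the factor itself, with 1 point for each pig and the pig number beside the points of the first gene. Pigs 2 and 6 are the ends of the MEIS2 series, pig 7 is the low end of the SOX21 series, and pig 2 stands away from the other pigs for GATA5 and HRH2.

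Other patterning genes were read from 9 lists with 214 genes, of which 126 have a named row. With limma, the pig as a block and Benjamini-Hochberg adjustment over all rows at a threshold of 0.05, 12 of the 126 were higher in PYL (9.52%) and 10 in OXY (7.94%), and 104 did not pass. Among all named genes 5.10% were higher in PYL and 8.52% in OXY. Without pigs 4 and 7 the 126 genes gave 20 and 9 calls, and all named genes 7.07% and 8.60%. With the repeated-measures test of the methods 12 of the calls were lost, those of PBX3, SOX2, SOX6, SOX13, HOXA2, HOXC4, HOXC5, NEUROD1, RFX3, NR2F2, SHH and RARB. HOXA7, NKX6-3 and BHLHA15 passed within both sets of arrays, and each other called gene failed in at least 1 of them. The median PYL minus OXY was 0.04 over the 126 genes and 0.00 over all named genes. All adjusted p of single genes below are from this fit, and SE is that of limma.

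Of 9 measured relatives and partners of MEIS2, 2 passed with a higher level in PYL and 1 in OXY, with a median of 0.18 over all 9. The partner PBX3, a homeodomain protein that binds DNA with MEIS and HOX proteins, changed by 0.92 (SE 0.18, adjusted p = 0.013). PBX3 was at 8.02 ± 0.71 in PYL, compared with 7.10 ± 0.49 in OXY (SD, n = 7). It was the patterning factor most like MEIS2 (r = 0.921) and was higher in PYL in 7 of 7 pigs, by 0.09 in pig 2 and by up to 1.81 in pig 7. PBX4 changed by 0.51 (SE 0.09, adjusted p = 0.011). IRX3, a homeobox factor of the Iroquois group, went the other way with -1.07 (SE 0.14, adjusted p = 0.0016) and levels of 4.64 ± 0.20 in PYL and 5.71 ± 0.51 in OXY. MEIS3, the only other measured MEIS gene, had 5.67 ± 0.53 in PYL and 5.27 ± 0.31 in OXY (difference 0.40, adjusted p = 0.12), with 0.77 and 1.16 in pigs 7 and 4. PBX2 differed by 0.22 (adjusted p = 0.15) and PKNOX2 by 0.10 (adjusted p = 0.68). MEIS1, PKNOX1, TGIF1 and TGIF2 are not analysed here. PBX3 and IRX3 did not pass within pigs 1 to 3 alone, and PBX4 within neither set alone.

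HOX proteins are the other partners of MEIS proteins, and their clusters are expressed in order along the body axis. Of 25 measured HOX genes, 5 passed, 4 of them with a higher level in OXY. The largest change was that of HOXA7, with -1.97 (SE 0.23, adjusted p = 0.001) and the same direction in 7 of 7 pigs (-2.98 to -1.05). Its level was 3.33 ± 0.49 in PYL against 5.30 ± 0.67 in OXY (SD, n = 7). HOXC4, HOXC5 and HOXD8 were also higher in OXY, with -0.86, -0.41 and -0.24. HOXA2, a gene of the anterior end of its cluster, was higher in PYL by 0.87 (SE 0.21, adjusted p = 0.031). HOXA3 and HOXA4, its neighbours in the cluster, differed by 0.78 and 0.82 and did not pass (adjusted p = 0.11 and 0.17). The differences of these 3 genes were largest in pigs 4 and 7 (1.54 to 2.46), where the muscle mean differed by 0.97 and 2.23. In pig 1 the muscle mean differed by 1.01, and HOXA2, HOXA3 and HOXA4 by 0.94, 0.55 and 0.94. HOXA5 of the same cluster had the opposite direction and did not pass either (-1.11, adjusted p = 0.14). It differed by 0.71 and 0.62 in pigs 4 and 7 and by -2.81 to -1.40 in the others. HOXA7 passed under every alternative tried. Leaving out 1 pig ended the calls of HOXA2 (pig 1, 3, 4 or 7, adjusted p up to 0.079), HOXC4 (pig 1, 3, 5 or 6, up to 0.068), HOXC5 (pig 3, 4 or 6, up to 0.07) and HOXD8 (any but pig 6, up to 0.087).

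Of 12 measured SOX genes besides SOX21, 2 were higher in PYL and 1 in OXY, with a median of -0.03. SOX2, which maintains the identity of the foregut epithelium, changed by 0.92 (SE 0.21, adjusted p = 0.028), with a level of 8.44 ± 0.62 in PYL (SD, n = 7) against 7.52 ± 0.51 in OXY. Its differences were 1.48, 1.28, 1.23, -0.10, 1.27, 1.23 and 0.02 in pigs 1 to 7, lowest in pigs 4 and 7 as for SOX21. Without these pigs the change of SOX2 was 1.30 (adjusted p = 8.8e-05). As the pigs left out are those with its lowest differences, a larger change follows from the choice, and this p adds no separate support. SOX13 changed by 0.56 (SE 0.14, adjusted p = 0.036), and SOX6 by -0.36 (SE 0.10, adjusted p = 0.046). SOX9, a factor of epithelial progenitors, had 8.76 ± 0.46 in PYL and 8.86 ± 0.35 in OXY (difference -0.10, adjusted p = 0.48). SOX14, the closest relative of SOX21, had 4.44 ± 0.31 and 4.50 ± 0.56 (difference -0.06, adjusted p = 0.76), and SOX17, a factor of the endoderm and of vessels, differed by -0.04 (adjusted p = 0.69). SOX4 is not analysed here. Leaving out 1 of pigs 1, 2, 3, 5 or 6 ended the calls of SOX2 and SOX13 (adjusted p up to 0.082 and 0.10), and leaving out any pig that of SOX6 (up to 0.10).

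Of 15 measured GATA factors and partner proteins besides GATA5, 1 was higher in OXY and none in PYL, with 14 that did not pass and a median of 0.00. The gene that passed was LMO4, a LIM-only adaptor protein, with -0.58 (SE 0.10, adjusted p = 0.0085) and the same direction in 7 of 7 pigs. GATA6, which is expressed through the gut epithelium, had a level of 10.15 ± 0.57 in PYL (SD, n = 7) against 10.59 ± 0.27 in OXY (difference -0.44, SE 0.20, adjusted p = 0.21). Its differences of -1.39 and -1.21 in pigs 4 and 7 stood against -0.34 to 0.15 in the other pigs, a different set of pigs from that in which GATA5 deviated. GATA2 and GATA3, better known from blood cells, differed by -0.21 (adjusted p = 0.36) and 0.10 (adjusted p = 0.64), and ZFPM2, a cofactor of GATA proteins, by -0.16 (adjusted p = 0.67). GATA1, GATA4 and ZFPM1 are not analysed here. LMO4 did not pass within either set of arrays alone.

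Of 17 measured factors of the foregut and stomach epithelium, 2 were higher in PYL and 1 in OXY. NKX6-3, a homeobox factor that in the mouse is needed for G cells, changed by 2.03 (SE 0.22, adjusted p = 7.4e-04), at 6.50 ± 0.71 in PYL against 4.47 ± 0.82 in OXY (SD, n = 7). Its difference was 1.07 and 1.17 in pigs 4 and 7 and 2.09 to 2.87 in the others. PDX1, the homeobox factor of the antrum, duodenum and pancreas, changed by 1.10 (SE 0.20, adjusted p = 0.0087), with 0.50 and 0.11 in pigs 4 and 7 and 1.08 to 1.69 in the others. In both genes the smallest differences were thus those of the pigs in which SOX21 was smallest. BHLHA15, the factor that maintains secretion in chief cells, changed by -2.87 (SE 0.18, adjusted p = 4.9e-05), and its likeness to GATA5 was 0.982. Within pigs 4 to 7 alone PDX1 did not pass.

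No gene of 6 measured factors of intestinal identity passed (0 called by limma, 0 by the repeated-measures test of the methods and 0 at an unadjusted p under 0.05). CDX2, which directs the intestinal epithelium, had a level of 3.69 ± 0.63 in PYL (SD, n = 7) against 3.62 ± 0.90 in OXY (difference 0.07, adjusted p = 0.76), in the lower part of the array values.

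Of 10 measured factors of endocrine differentiation, 3 were higher in PYL and none in OXY, with a median of 0.37. PAX6 changed by 1.81 (SE 0.29, adjusted p = 0.0056) and NEUROD1 by 1.78 (SE 0.36, adjusted p = 0.016), both factors of the G cell and other hormone-producing cells. PAX6 differed by 0.56 in pig 4, 0.67 in pig 7 and 1.59 to 2.93 elsewhere. NEUROD1 differed by 0.29 and 0.23 in these pigs and by 1.47 to 3.05 elsewhere. RFX3 changed by 0.42 (SE 0.11, adjusted p = 0.05), at the edge of the threshold, and was no longer called with the arrays centered on their median, normalized by quantiles or scaled to RPL4. PAX6 and NEUROD1 did not pass within pigs 4 to 7 alone. Leaving out pig 3 or 6 ended the call of NEUROD1 (adjusted p up to 0.052), and leaving out any pig but pig 3 that of RFX3 (up to 0.13).

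Of 12 measured mesenchymal factors, 1 was higher in OXY and none in PYL. NR2F2, a nuclear receptor of veins and mesenchyme, changed by -0.84 (SE 0.20, adjusted p = 0.028), with -0.04 and 0.03 in pigs 4 and 7 and -1.33 to -0.75 in the others. BARX1, the homeobox factor of the stomach mesenchyme, had a level of 7.87 ± 1.24 in PYL (SD, n = 7) against 7.40 ± 0.52 in OXY (difference 0.46, adjusted p = 0.48). Its difference was largest in pig 7 (2.27) and lowest in pig 2 (-1.10), the pigs with the largest and the lowest difference of the muscle mean. Of 20 measured patterning signals, receptors and enzymes, 2 were higher in PYL and 1 in OXY. SHH changed by 0.90 (SE 0.21, adjusted p = 0.026), the Wnt inhibitor SFRP1 by 0.39 (SE 0.08, adjusted p = 0.017) and the retinoic acid receptor RARB by -0.49 (SE 0.13, adjusted p = 0.042). Leaving out pig 1, 2, 3, 5 or 6 ended the calls of NR2F2 and SHH (adjusted p up to 0.082 and 0.078), leaving out pig 1 or 5 that of SFRP1 (up to 0.051) and leaving out any pig but pig 2 that of RARB (up to 0.11).

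**Figure D4:**
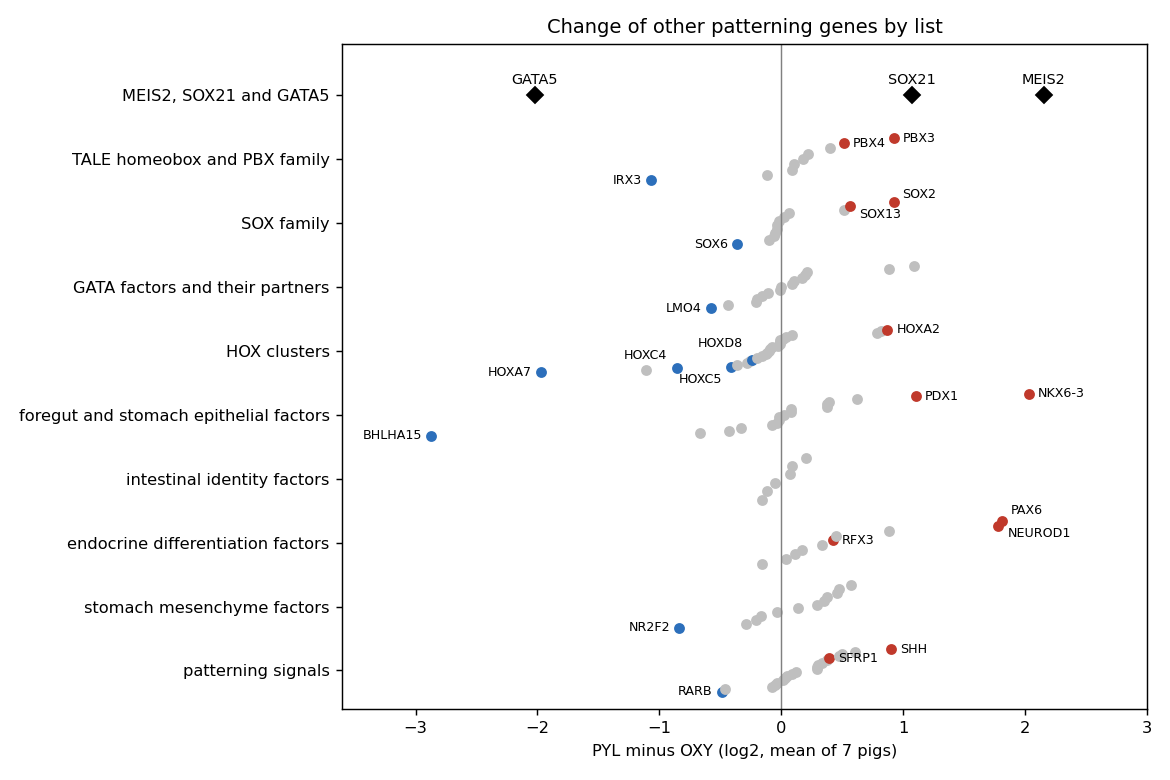
Mean PYL minus OXY (log2, 7 pigs) of MEIS2, SOX21 and GATA5 (black diamonds, not tested) and of the measured genes of 9 lists, in red where limma called a gene higher in PYL, in blue where higher in OXY and in grey where it did not pass. PBX3, SOX2, PDX1, NKX6-3, PAX6, NEUROD1 and SHH lie on the side of MEIS2 and SOX21, while HOXA7 and BHLHA15 lie on that of GATA5.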

How the data were processed

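RNA of the 14 samples was measured on porcine whole-transcript Affymetrix arrays, and the authors ran a Robust Multichip Analysis on the scanned files with Affymetrix Expression Console. The deposited values are linear intensities of 27460 transcript rows, made by the authors, and the sources used here do not give the steps that led to their 2 distributions. Log2 was taken of the deposited values without further normalization. The platform annotation gives 1 symbol to 11982 rows, several to 373 and none to 15105. A gene with more than 1 row (969 of 10912 genes) was represented by the row with the highest mean.

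Rows were tested with limma (version 3.58.1, R 4.3.3) with the pig as a block, since both arrays come from the same animal and the methods use each pig as the repeated measure. Benjamini-Hochberg adjustment covered all rows. The fit was tested on simulated data. Within the sets of arrays, the deviations of both arrays of a pig from their mucosa's mean were correlated over rows. The correlations were -0.03, 0.06, 0.16, 0.62, 0.23, 0.43 and -0.01 in pigs 1 to 7, so near 0 in pigs 1, 2 and 7. The number of arrays limits the precision.

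The 3 genes, the 9 patterning lists, 15 marker lists and all alternatives were chosen with earlier results of these data known. Named are the 3 genes, their measured relatives, every called gene of the lists (at most 6 a list), PDX1, BARX1, NKX6-3 and CDX2, the 5 genes most like each factor, label checks and up to 3 markers a list by level. SLC26A7, CASR, FLT1, SCGN, SCG5, HOXA3, HOXA4 and HOXA5 were named after their values were seen. Alternatives were the pig term left out, other scalings, a filter on low rows, pigs left out, each set alone, other priors and weights, the mean of a gene's rows and the methods' repeated-measures test.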

Additional observations from a re-analysis of the deposited data

Results flagged for a closer look

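A sample far from the others of its group was looked for with Dixon's test among the 7 pigs for 37 genes named above, in 111 groups of values, and 5 groups were past its critical value. Chance alone gives about 1 in 20. The PYL minus OXY of GATA5 was -1.17 in pig 2, against -2.41 to -1.96 in the other pigs. That of PBX2 was 0.68 in pig 2, against 0.04 to 0.31. That of IRX3 was -0.28 in pig 1, against -1.46 to -0.97. That of LMO4 was -1.21 in pig 5, against -0.61 to -0.37. The level of RARB in PYL was 6.95 in pig 1, against 7.77 to 8.20 in the other pigs.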

How the results depend on the processing

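MEIS2, SOX21 and GATA5 kept their direction in every alternative tried. Over single pigs left out, the mean PYL minus OXY was 1.95 to 2.31, 0.92 to 1.26 and -2.16 to -1.96. No pair of factors changed the sign of its correlation without the 2 pigs farthest from the median of its first-named factor. In the pair of SOX21 and GATA5 this kept pig 2, which deviated in GATA5. Without the pig block (no pairing of the arrays), 74 named genes were higher in PYL and 183 in OXY, against 556 and 930 with it, and 4 and 3 of the other patterning genes, against 12 and 10. Pigs 1 to 3 alone gave 286 and 341 named genes and 7 and 6 patterning genes, and pigs 4 to 7 alone 125 and 384 and 3 and 4, with fewer samples. The methods' repeated-measures test with adjustment gave 306 and 693 named genes and 5 and 5 patterning genes. Leaving out 1 pig gave 335 to 597 named genes higher in PYL and 696 to 875 in OXY, 6 to 15 patterning genes higher in PYL and 4 to 8 in OXY, and leaving out pigs 4 and 7 gave 20 patterning genes and 771 named genes higher in PYL. Of 416 values of the 22 called patterning genes under the alternatives, 288 stayed past the threshold, 128 did not and 0 reversed, and the cause was not tested.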

Other observations

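The other marker lists were counted in the same way. For comparison, 5.10% of all named genes were higher in PYL and 8.52% in OXY. In lists this short a count of 1 gene cannot be told apart from these shares. Of 8 measured endothelial genes, 7 were higher in OXY, among them the junction protein PECAM1 (PYL minus OXY -0.43, SE 0.11, adjusted p = 0.038 from limma) and the receptors TEK (-0.91, SE 0.12, adjusted p = 0.0021) and ENG (-0.54, SE 0.06, adjusted p = 0.0012). Of 14 endocrine genes 5 were higher in PYL and 2 in OXY, of 7 macrophage and dendritic cell genes 3 were higher in PYL, and of 4 chief cell genes 3 were higher in OXY. The remaining chief cell gene, GIF (gastric intrinsic factor), did not pass. It was higher in PYL in 7 of 7 pigs (1.49, SE 0.46, adjusted p = 0.075 from limma). Of 3 gland mucous genes 1 was higher in OXY, and this was PGC, which is also among the chief cell genes. Of 8 fibroblast genes 1 was higher in OXY and of 2 genes of the interstitial cell of Cajal 1 in PYL (ANO1). Of 9 genes of the intestinal epithelium 1 was higher in PYL (villin, VIL1) and of 4 pancreatic acinar genes 1 in OXY (CPA1). Limma and the repeated-measures test of the methods called 0 of the 10 measured T cell, 3 B and plasma cell, 10 enteric neuron and glia and 3 surface mucous genes, of which 2, 0, 1 and 2 had an unadjusted p under 0.05 in limma.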
